A study of Rattus norvegicus with 4 samples.

Results

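The genes described here are feedback targets of the Wnt pathway and nuclear partners of β-catenin, read from RNA-seq counts of Schwann cells (SCs) cultured from rats, which are the glia that ensheath and myelinate peripheral axons. The list held 10 genes by symbol, and 7 of them were analysed (Axin2, Nkd1, Rnf43, Lef1, Tcf7l1, Tcf7l2 and Ctnnb1) out of 17949 genes in the table. Axin1, Tcf7 and Znrf3 were not analysed here. Axin2 was put on the list because of its rise in these same samples, so its values are given as a description, and the other genes were taken for their place in the pathway.

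Primary rat SCs from sciatic nerve received one of 2 lentiviruses for 48 h, with 2 samples in each group. One virus carried the Egr2 promoter antisense RNA (Egr2-AS) in a vector with the red reporter DsRed-Express2 (Lenti-AS), and the control virus carried AcGFP1 in a vector of the same series (Lenti-GFP), so the groups also differed in the fluorescent protein. All cells were grown in 10% serum with 4 µM forskolin, which raises cyclic AMP, and 5 ng/ml heregulin-β1, a ligand of ErbB receptors. The labels describe the samples as biological replicates without naming the cultures, and p-values measure only the spread between these samples. The age of the animals was not given, and the level of the Egr2-AS itself was not analysed here.

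In the Wnt pathway a destruction complex built on the scaffold proteins Axin1 and Axin2 keeps β-catenin, the product of Ctnnb1, at a low level in the cytoplasm. When a Wnt ligand binds its Frizzled and LRP receptors, β-catenin escapes this complex, enters the nucleus and joins the DNA-binding proteins of the LEF/TCF family (Lef1, Tcf7, Tcf7l1 and Tcf7l2) on target genes. Several targets restrain the pathway in turn. Axin2 adds scaffold to the destruction complex, Nkd1 binds Dishevelled, and Rnf43 and Znrf3 are ubiquitin ligases that remove Frizzled from the cell surface. In the Schwann cell lineage, Wnt signaling has been linked to the onset of myelination and to the control of immature and repair cells.

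The bases upstream of the start sites of Axin2 and Nkd1 are shown because these genes had the highest fitted fold changes of the 7 and because LEF/TCF proteins act on such regions. The sequences come from RefSeq on the GRCr8 assembly, a different build from the rn6 assembly on which the reads were counted, and 8 of the 10 genes matched a window in that table. Each is the 250 bases before the annotated start, written 5′ to 3′ on the strand of the gene, at chr10:94398535-94398784 (plus strand) for Axin2 and chr19:34722847-34723096 (minus strand) for Nkd1. Capitals mark the LEF/TCF words CTTTGAT and CTTTGAA, which were searched on both strands and cannot overlap each other on one strand.
Axin2: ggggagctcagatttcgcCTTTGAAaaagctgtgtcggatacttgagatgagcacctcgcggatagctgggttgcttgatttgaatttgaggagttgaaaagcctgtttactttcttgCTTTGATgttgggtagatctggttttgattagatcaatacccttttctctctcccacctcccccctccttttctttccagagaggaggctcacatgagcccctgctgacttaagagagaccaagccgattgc
Nkd1: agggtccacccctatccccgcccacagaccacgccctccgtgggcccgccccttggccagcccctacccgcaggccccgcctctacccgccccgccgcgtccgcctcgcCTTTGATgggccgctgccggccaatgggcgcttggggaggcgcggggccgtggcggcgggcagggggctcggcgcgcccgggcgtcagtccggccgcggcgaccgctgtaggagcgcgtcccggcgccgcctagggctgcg

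The word CTTTGAT began 132 bases before the start of Axin2 and 141 bases before that of Nkd1, and Axin2 also held CTTTGAA 232 bases before its start. Within windows of 300 bases, from 250 before to 50 after the start, the window of Tcf7 also held CTTTGAT, 4 bases before its start, while those of Lef1, Tcf7l1, Tcf7l2, Ctnnb1 and Rnf43 held neither word. Of all 33469 windows in the table, 3.63% held CTTTGAT, 5.40% held CTTTGAA and 8.73% held at least one of them. These are matches of letters only, and no binding was measured in the counts.

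Total counts were between 74024323 and 96185890 per sample. Levels are given as reads per 1000000 reads of the library (CPM), with library sizes scaled by TMM. A gene was tested if 2 or more samples had 10 counts or more, which 12446 genes met, and the groups were compared by the quasi-likelihood test of edgeR with Benjamini-Hochberg adjustment over all 12446. The word called marks a gene whose adjusted p was under 0.05 and whose fitted difference reached 1.3-fold. The SC markers S100b, Erbb3 and Ngfr were each at 448 CPM or more in every sample and Cdh19 at 259 CPM or more, while Gap43, listed with them, was at 0.264 CPM or less. Of 7 fibroblast markers, Dcn, Lum, Thy1 and Cd34 were at 0.0342 CPM or less. The list summed to 4104 and 3680 CPM in Lenti-GFP and 4333 and 2694 CPM in Lenti-AS. Nearly all of it came from the collagen genes Col1a1 and Col3a1, which SCs in culture also express. Col1a1 had 841 and 721 CPM in Lenti-GFP, 2131 CPM in Lenti-AS 1 and 290 CPM in Lenti-AS 2. Col3a1 had 3261 and 2955 CPM in Lenti-GFP, 2198 CPM in Lenti-AS 1 and 2400 CPM in Lenti-AS 2. The Lenti-AS samples stood further apart than the Lenti-GFP samples, with 11.3% against 7.01% of genes tested lying more than 1.5-fold apart. Sox10, the transcription factor that specifies SCs, had 163 CPM in Lenti-AS 1 and 61.2 CPM in Lenti-AS 2, against 77.1 and 72.6 CPM in Lenti-GFP. High levels of 5 globin genes were found in Lenti-AS 2 alone, where the erythroid list summed to 3002 CPM against 3.90 to 7.27 CPM elsewhere. Alas2, also on that list, lay between 0.461 and 0.851 CPM in all samples, with overlapping groups. In bulk samples, a change in the number of cells of one kind and a change in RNA per cell cannot be told apart.

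All 7 genes passed the filter on low counts. Axin2 was called higher in Lenti-AS, and the other 6 genes were not called in either direction. At an unadjusted p under 0.05 there were 3 of the 7, Axin2, Nkd1 and Ctnnb1, beside 21.8% of all genes tested. Across all genes tested, 1.31% were called higher and 0.667% lower, 1.98% in all. In 5 of the 7 genes the groups did not overlap, Axin2, Nkd1, Rnf43 and Lef1 with both Lenti-AS samples above and Ctnnb1 with both below, where 54.9% of all genes tested did not overlap, 27.7% with both Lenti-AS samples above and 27.2% with both below. The median log2 fold change of the 7 genes was 0.57, beside 0.0071 over all genes tested. Since Axin2 was picked from this comparison, nothing is read from these counts or from this median.

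**Figure D1:**
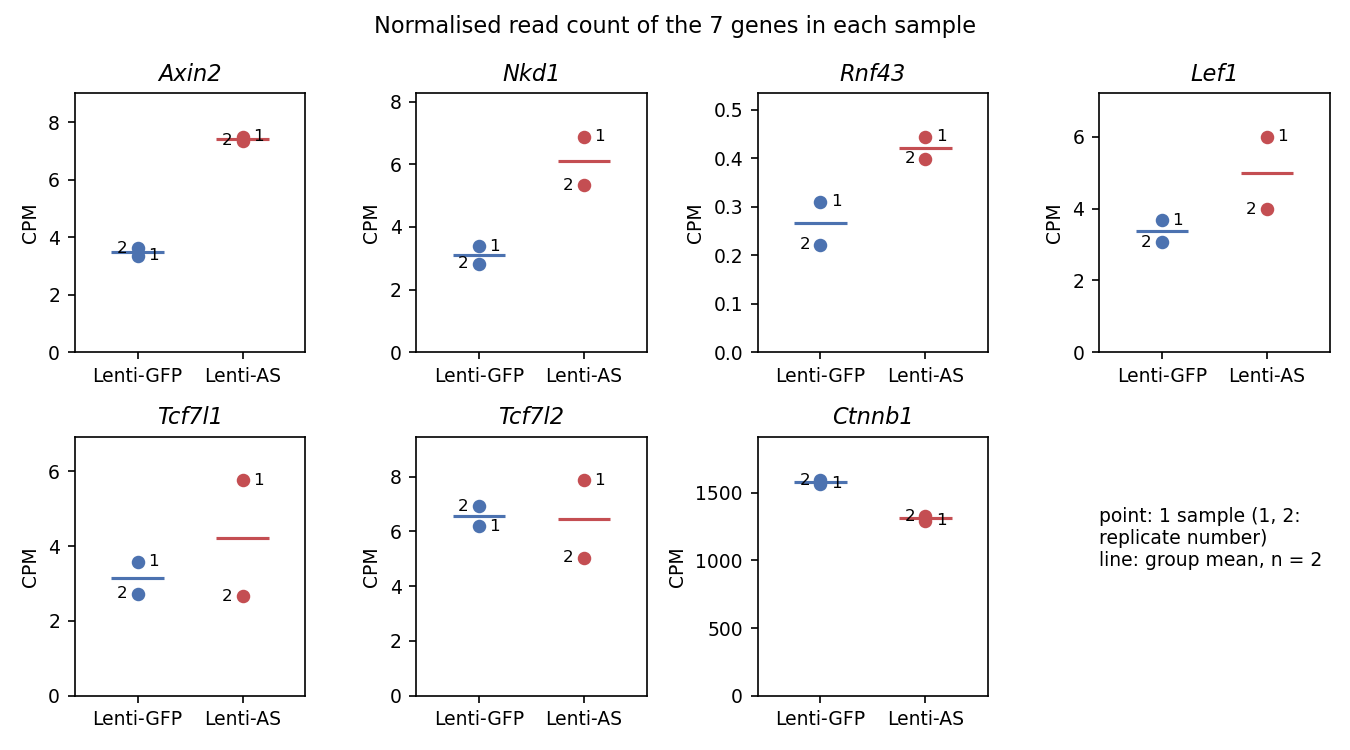
Normalised read count (CPM, linear axis from 0) of each of the 7 genes in each sample, with the replicate number beside each point and a line at the group mean (n = 2). Axin2 lay at 3.35 and 3.62 CPM in Lenti-GFP and at 7.50 and 7.36 CPM in Lenti-AS, while the Lenti-AS samples of Tcf7l1 and Tcf7l2 lay on both sides of the Lenti-GFP samples.

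Axin2, the scaffold that most cell types induce when β-catenin signaling is active, was at 3.35 and 3.62 CPM in Lenti-GFP and at 7.50 and 7.36 CPM in Lenti-AS, from 313, 343, 657 and 553 counts. As Axin2 was picked for its rise, the distance between the groups and the rank of its change are descriptions. With Lenti-AS the higher, the nearest members of the groups lay 3.74 CPM apart. The Lenti-GFP pair differed by 0.266 CPM and the Lenti-AS pair by 0.140 CPM. Mean levels (± SD, n = 2 each) were 3.49 ± 0.188 CPM in Lenti-GFP against 7.43 ± 0.0989 CPM in Lenti-AS, a fold change of 2.13 (log2 fold change 1.09, standard error 0.13). Its log2 fold change ranked 124 among the 12446 genes tested, from the highest. Fits that left out one sample gave log2 fold changes from 1.04 to 1.15. Whether Axin2 was called depended on which sample was left out. These calls are not read, since the lone sample of a group is taken to vary like the other group.

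The pattern of Axin2 over the 4 samples was compared with that of the 10146 other genes with a mean of at least 100 counts, as the Euclidean distance between centred log2(CPM + 0.5) values. The nearest was Lgi3, which encodes a secreted leucine-rich repeat protein (distance 0.0982). It had 0.761 and 0.886 CPM in Lenti-GFP and 2.00 and 2.18 CPM in Lenti-AS. Its fitted fold change was 2.53, against 2.13 for Axin2. The added 0.5 narrows differences at levels as low as those of Lgi3, so its first place depends on that offset. Next came the protocadherin gene Pcdh17 (distance 0.127) with 20.2, 21.0, 43.1 and 37.7 CPM in the same order of samples. The third was Gpnmb, a transmembrane glycoprotein of lysosomes (distance 0.128), with 99.6, 101, 183 and 194 CPM. With only 4 samples these likenesses are descriptions of a group difference with little spread inside the groups.

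Nkd1, which antagonizes Wnt signaling through Dishevelled, had 3.37 and 2.82 CPM in Lenti-GFP and 6.88 and 5.32 CPM in Lenti-AS, from 315, 267, 603 and 400 counts. The groups did not overlap, with Lenti-AS above, and the gap of 1.95 CPM that divided them was wider than the 1.56 CPM that divided the Lenti-AS pair. The fold change was 1.97 (log2 fold change 0.98, standard error 0.19) with a 95% interval of 1.43 to 2.73, and the adjusted p by the edgeR quasi-likelihood test was 0.0660, so Nkd1 was not called. DESeq2 on the same genes gave the same log2 fold change of 0.98 with an adjusted p of 0.000808, and called 3.92% of all genes tested higher. Over all alternatives the adjusted p of Nkd1 ran from 2.71e-06 to 0.569. Its log2 fold change was 0.78 without Lenti-AS 1 and 1.15 without Lenti-AS 2. It was 1.12 without Lenti-GFP 1 and 0.86 without Lenti-GFP 2.

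Nkd2, the close relative of Nkd1, is not one of the 7 genes but was counted among other Wnt targets. It had 162 and 145 CPM in Lenti-GFP and 93.9 and 111 CPM in Lenti-AS, and fell by 0.58 on the log2 scale (standard error 0.10, adjusted p = 0.0499 by the edgeR quasi-likelihood test). The call of Nkd2 was lost with library totals in place of TMM scaling, at a fold limit of 1.5 and with the replicate block. With that block 14 genes of the table were called lower, against 83 in the main fit. The 2 naked cuticle genes had fitted changes of opposite sign, and only the change of Nkd2 was called. The difference between their changes was not tested.

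Rnf43, a ubiquitin ligase that clears Frizzled receptors, was close to the limit of detection in this culture, with 29 and 21 counts in Lenti-GFP and 39 and 30 counts in Lenti-AS. Its values were 0.311, 0.222, 0.445 and 0.399 CPM in the same order, so both Lenti-AS samples were slightly above both Lenti-GFP samples. The gap of 0.0884 CPM between the groups was no wider than the 0.0891 CPM between the Lenti-GFP samples. The fold change was 1.59 with a 95% interval of 0.855 to 2.94 and an adjusted p of 0.337 by the edgeR quasi-likelihood test, so at this depth neither no change nor a rise of the size seen in Axin2 lies outside the interval.

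The LEF/TCF genes encode the proteins through which β-catenin reaches DNA. Lef1, usually described as an activator in the presence of β-catenin and as a Wnt target itself, had 3.67 and 3.06 CPM in Lenti-GFP and 6.00 and 3.98 CPM in Lenti-AS. Lenti-AS 2 was only 0.303 CPM above the higher Lenti-GFP sample, while the Lenti-AS samples lay 2.02 CPM apart. The fold change was 1.48 (log2 fold change 0.57, standard error 0.24), with a 95% interval of 0.995 to 2.21 and an adjusted p of 0.233 by the edgeR quasi-likelihood test.

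Tcf7l1, usually a repressor of Wnt targets, had 3.58 and 2.72 CPM in Lenti-GFP and 5.76 and 2.66 CPM in Lenti-AS. Lenti-AS 1 was the highest of the 4 samples and Lenti-AS 2 the lowest, so the groups overlapped. The log2 fold change was 0.42 (standard error 0.37, adjusted p = 0.537 by the edgeR quasi-likelihood test). Without Lenti-AS 2 it was 0.87 and without Lenti-AS 1 it was -0.24, so the direction rested on a single sample.

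Tcf7l2, the family member that myelinating glia of the central nervous system are known to require, had 6.19 and 6.92 CPM in Lenti-GFP and 7.87 and 5.04 CPM in Lenti-AS. The Lenti-AS samples were the highest and the lowest of the 4. Its log2 fold change was -0.02 (standard error 0.22, adjusted p = 0.968 by the edgeR quasi-likelihood test), with a 95% interval from 0.674-fold to 1.44-fold, and it was 0.0108 when library totals replaced TMM scaling.

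All 3 LEF/TCF genes had higher CPM in Lenti-AS 1 than in Lenti-AS 2, by 1.51-fold for Lef1, 2.17-fold for Tcf7l1 and 1.56-fold for Tcf7l2. The 95% intervals of these ratios from the counts alone were 1.31 to 1.74, 1.84 to 2.56 and 1.38 to 1.77, and they cover counting error only. Among all genes tested, 11.1%, 4.19% and 10.1% had a wider spread between the Lenti-AS samples than Lef1, Tcf7l1 and Tcf7l2. Axin2 and Ctnnb1 were at the other end, and 89.3% and 85.5% of genes had a wider spread. The log2 fold change of Lef1 was 0.83 without Lenti-AS 2 and 0.24 without Lenti-AS 1. Sox10 differed between the Lenti-AS samples in the same direction, and its part in these values was not tested.

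**Figure D2:**
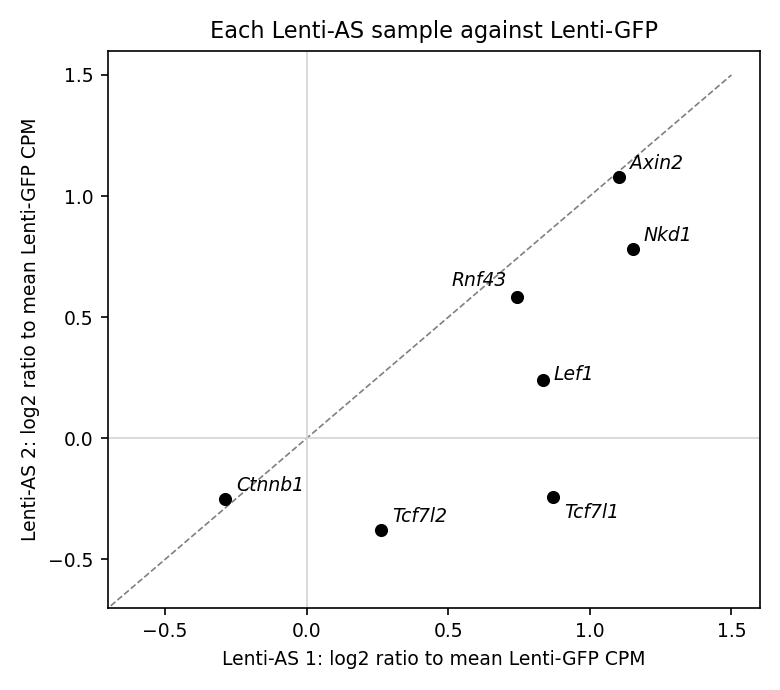
Ratio of each Lenti-AS sample to the mean CPM of the Lenti-GFP samples, on log2 axes, with Lenti-AS 1 on the horizontal and Lenti-AS 2 on the vertical axis, one point per gene and a dashed line where both samples are equal. Axin2 and Ctnnb1 lie close to the dashed line, and Lef1, Tcf7l1 and Tcf7l2 lie below it, 1.51-fold, 2.17-fold and 1.56-fold higher in Lenti-AS 1.

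The balance among the 3 LEF/TCF genes does not depend on library scaling, since it uses only their shares of one another's counts in the same sample. Tcf7l2 took 46.1% (95% Wilson interval 43.3 to 48.8) and 54.5% (51.7 to 57.3) of their summed counts in the Lenti-GFP samples. These intervals cover counting error only, and the Lenti-GFP samples differed by more than that. In the Lenti-AS samples it took 40.1% (37.8 to 42.4) and 43.2% (39.9 to 46.5), below both Lenti-GFP samples. The share of Lef1 was 27.3% (24.9 to 29.9) and 24.1% (21.8 to 26.6) in Lenti-GFP and 30.6% (28.4 to 32.8) and 34.1% (31.0 to 37.2) in Lenti-AS, above both Lenti-GFP samples. The share of Tcf7l1 overlapped between the groups, at 26.6% and 21.4% against 29.3% and 22.8%. Transcript length also enters these shares, so they serve to compare samples and not the levels of the genes. With 2 samples per group, an exact permutation test of a single value cannot give a two-sided p under 0.333, and no test of the shares was run.

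Ctnnb1, which encodes β-catenin, the protein shared by Wnt signaling and cadherin junctions, had 1567 and 1594 CPM in Lenti-GFP and 1295 and 1329 CPM in Lenti-AS. The Lenti-AS samples were the lower of the 4, and the gap of 238 CPM was far wider than the 27.7 and 33.3 CPM inside the groups. The fold change was 0.830 (log2 fold change -0.27, standard error 0.05), with a 95% interval of 0.760 to 0.906. The adjusted p by the edgeR quasi-likelihood test was 0.0642, and the size of the difference lay within the 1.3-fold limit, so Ctnnb1 was not called in this fit or in any of its 14 alternatives, over which the adjusted p ran from 0.000134 to 0.525. The count of β-catenin mRNA says nothing of the amount of nuclear β-catenin, which is set largely by protein breakdown.

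Set against Ctnnb1 in the same sample, Axin2 had 2.14 and 2.27 counts per 1000 Ctnnb1 counts in Lenti-GFP and 5.79 and 5.54 in Lenti-AS. Nkd1 had 2.15 and 1.77 counts per 1000 Ctnnb1 counts in Lenti-GFP and 5.31 and 4.00 in Lenti-AS. These are the same counts as above on a measure without library scaling, and the lower Ctnnb1 counts in Lenti-AS widen both ratios. Axin2 and Nkd1 were close to each other in counts, with 0.994 and 1.28 Axin2 counts per Nkd1 count in Lenti-GFP and 1.09 and 1.38 in Lenti-AS, values that overlapped between the groups.

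**Figure D3:**
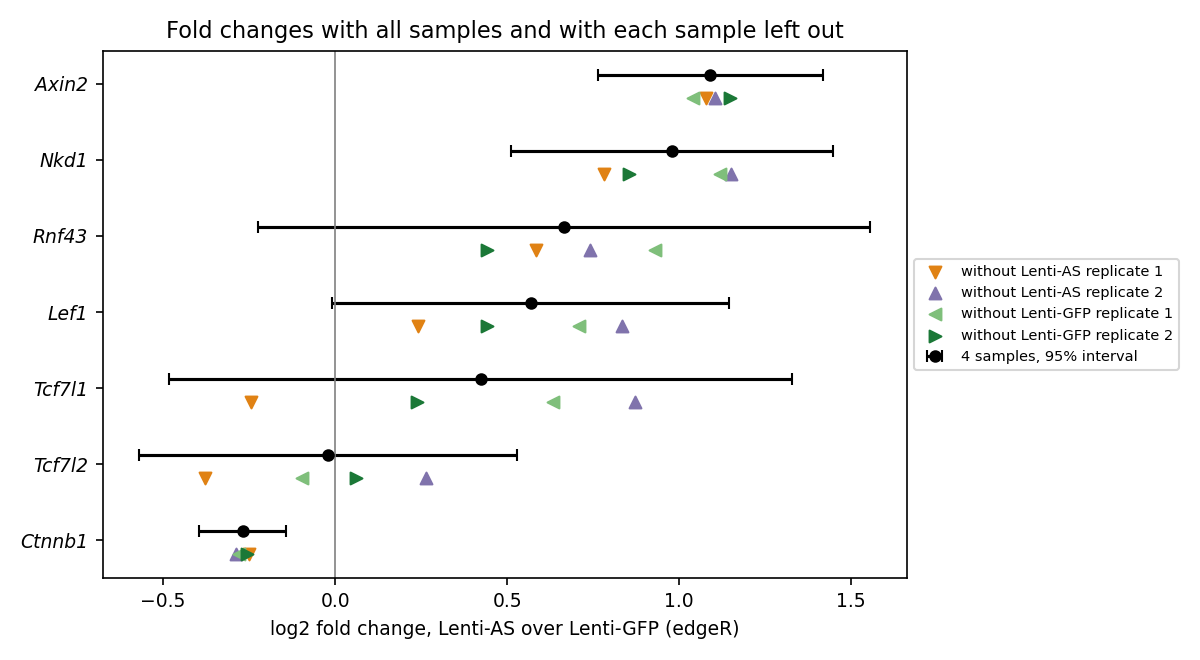
Log2 fold change of Lenti-AS over Lenti-GFP (edgeR) for the 7 genes, with black points and bars for all 4 samples and their 95% interval and coloured triangles for fits that left out one sample. Axin2 stayed between 1.04 and 1.15, while Tcf7l1 moved from -0.24 without Lenti-AS 1 to 0.87 without Lenti-AS 2.

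The rest of the pathway was read from 8 lists that hold 134 genes other than these, of which 124 had a row and 104 were tested. Cdh1 and Birc5 were called higher, Sfrp4, Nkd2 and Cdh11 lower, and the other 99 were not called. Of all genes tested, 1.31% were called higher and 0.667% lower in the same fit. At a fold limit of 1.5 Sfrp4 alone was called, and all 5 calls were lost with the replicate block. That block left 3 genes of the table called higher and 14 lower, against 163 and 83 in the main fit. The loss is therefore not particular to these 5. An unadjusted p under 0.05 was reached by 32 of the 104 with edgeR, beside 21.8% of all genes tested. By list these were 3 of the ligand genes, 2 of the receptors, 0 of the R-spondin and LGR genes, 4 of the inhibitors, 8 of the Dishevelled and destruction complex genes, 3 of the nuclear partners, 7 of the other targets and 5 of the junction genes. DESeq2 called 3.92% of all genes tested higher and 1.12% lower, with the 2413 that it gave no adjusted p counted as not called. Of the 104 it called 5 higher and 4 lower. It added Wnt6, Gsk3b and Id2, an inhibitor of basic helix-loop-helix factors, among the higher and the receptor gene Tnfrsf19 among the lower. The median log2 fold change of the 104 genes was 0.0238, beside 0.0071 over all genes tested.

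Among the genes for Wnt ligands and their secretion, 0 of 11 tested were called. Wnt6, a ligand, had the smallest p of the list, with 4.23 and 4.30 CPM in Lenti-GFP and 7.04 and 7.01 CPM in Lenti-AS (log2 fold change 0.72 with a standard error of 0.13, adjusted p = 0.0543 by the edgeR quasi-likelihood test). The groups of Wnt6 did not overlap, and it was called higher in 9 of its 14 alternatives, DESeq2 and limma-voom among them. Wls, which carries Wnt proteins to the cell surface, lay between 92.4 and 97.1 CPM in all samples, and Porcn, which attaches their lipid, between 7.32 and 8.65 CPM.

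None of the 16 receptor genes tested and none of the 4 R-spondin or LGR genes tested was called. Fzd7, a Frizzled receptor, had 16.7 and 15.4 CPM in Lenti-GFP and 20.0 and 19.4 CPM in Lenti-AS (log2 fold change 0.30, adjusted p = 0.121 by the edgeR quasi-likelihood test). Fzd2 lay between 135 and 165 CPM and the Wnt co-receptor Ptk7 between 303 and 336 CPM, and the groups of Ptk7 overlapped. Lgr4, a receptor for R-spondins, which oppose Rnf43 and Znrf3, lay between 285 and 338 CPM, and Lgr5, a relative that is also a Wnt target, between 14.0 and 18.5 CPM.

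Among secreted and surface inhibitors, 1 of 11 tested was called, beside 1.98% of all genes tested. Sfrp4, which binds Wnt ligands outside the cell, had 27.9 and 29.5 CPM in Lenti-GFP and 17.1 and 15.9 CPM in Lenti-AS, and fell by 0.80 on the log2 scale (standard error 0.08, adjusted p = 0.0191 by the edgeR quasi-likelihood test). Its relative Sfrp1 lay between 544 and 634 CPM, with both Lenti-AS samples below both Lenti-GFP samples, and was not called (log2 fold change -0.13, adjusted p = 0.278). Sostdc1, a secreted inhibitor of Wnt and BMP signaling, lay between 36.9 and 46.4 CPM and was not called.

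In the Dishevelled and destruction complex list, 0 of 20 tested were called. Gsk3b, the kinase that marks β-catenin for breakdown, had 12.3 and 12.6 CPM in Lenti-GFP and 20.8 and 16.1 CPM in Lenti-AS (log2 fold change 0.57 with a standard error of 0.13, adjusted p = 0.0931 by the edgeR quasi-likelihood test). Csnk1a1, the casein kinase that primes β-catenin for Gsk3b, and Tnks2, a tankyrase that marks axin proteins for breakdown, had log2 fold changes of -0.13 and -0.14 and were not called.

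Of the 17 nuclear partners of β-catenin tested, 0 were called, and 14 had a fitted log2 fold change above 0 (median 0.21), as did 51.3% of all genes tested. In 9 of the 17 the groups overlapped. Both Lenti-AS samples were above in 7 and below in 1, beside 27.7% and 27.2% of all genes tested. No test of the list was run. Smarca4, a chromatin remodelling ATPase, had 181 and 176 CPM in Lenti-GFP and 220 and 234 CPM in Lenti-AS, with an adjusted p of 0.0464 by the edgeR quasi-likelihood test and a fold change of 1.27, under the 1.3-fold limit. Chd8, a chromatin helicase that represses Wnt targets, lay between 158 and 183 CPM, and its groups overlapped.

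Of the other 17 Wnt targets tested, Birc5 was called higher and Nkd2 lower, beside 1.31% and 0.667% of all genes tested. Birc5, which encodes the mitotic protein survivin, had 21.8 and 23.4 CPM in Lenti-GFP and 35.6 and 30.8 CPM in Lenti-AS (log2 fold change 0.55 with a standard error of 0.09, adjusted p = 0.0471 by the edgeR quasi-likelihood test). Its call was also lost with limma-voom and with the newer quasi-likelihood form. Of 14 cell cycle markers listed, 10 were called higher, beside 1.31% of all genes tested. These markers summed to 1386 and 1439 CPM in Lenti-GFP and 1936 and 1897 CPM in Lenti-AS. Their part in the values of Birc5, Axin2 and Nkd1 was not tested. Jun had 1269 and 1139 CPM in Lenti-GFP and 895 and 1084 CPM in Lenti-AS (log2 fold change -0.28, adjusted p = 0.198), and Cd44, a cell surface receptor, lay between 1090 and 1165 CPM. Neither was called.

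At cell junctions, where β-catenin links cadherins to α-catenin, 2 of 8 genes were called, beside 1.98% of all genes tested. Cdh1, which encodes E-cadherin, had 19.1 and 19.0 CPM in Lenti-GFP and 26.5 and 29.9 CPM in Lenti-AS (log2 fold change 0.57 with a standard error of 0.08, adjusted p = 0.0389 by the edgeR quasi-likelihood test). Cdh11, another cadherin, had 78.9 and 80.1 CPM in Lenti-GFP and 57.1 CPM in each Lenti-AS sample, and fell by 0.48 on the log2 scale (standard error 0.06, adjusted p = 0.0316 with the edgeR test). Cdh19, a cadherin of the SC lineage, had 315 and 330 CPM in Lenti-GFP and 281 and 259 CPM in Lenti-AS and was not called (adjusted p = 0.102). Ctnna1, the α-catenin partner, lay between 1908 and 2044 CPM with overlapping groups.

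**Figure D4:**
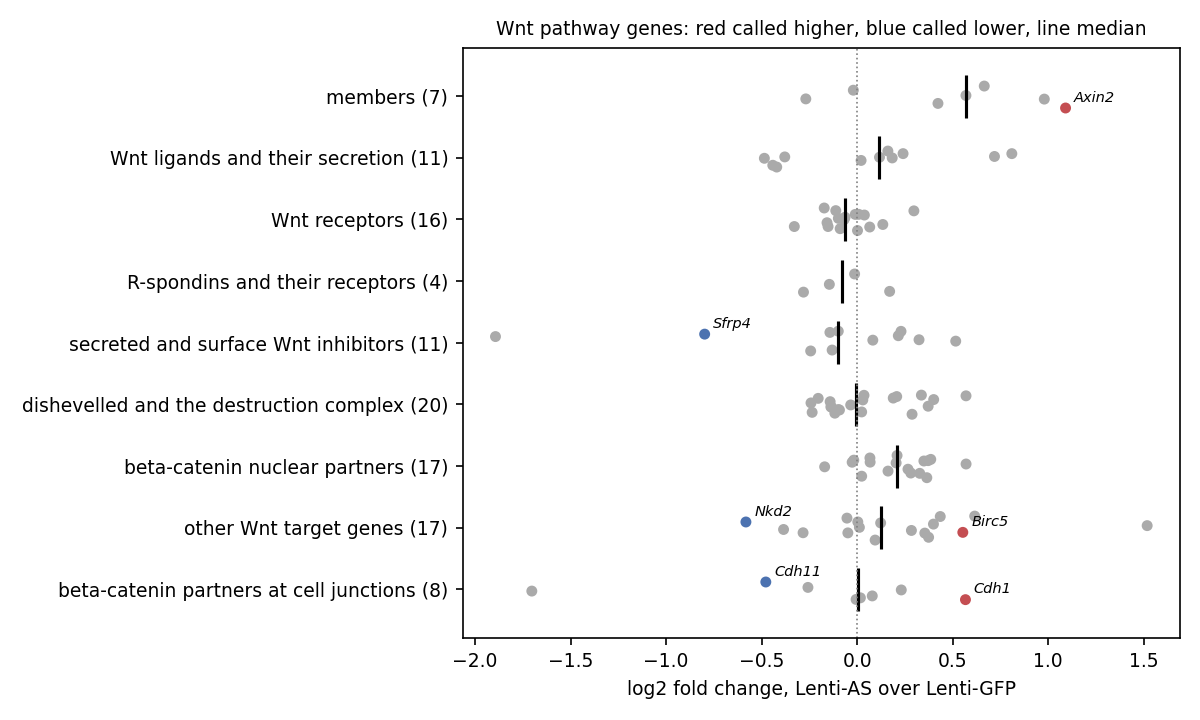
Log2 fold change of Lenti-AS over Lenti-GFP for each tested gene of the 7 described here (top row) and of the 8 Wnt lists, with the number tested in brackets, red points for genes called higher, blue for genes called lower, grey for genes not called and a black line at each median. Cdh1 and Birc5 were called higher and Sfrp4, Nkd2 and Cdh11 lower among the 104 genes of the lists.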

How the data were processed

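RNA-seq of 4 samples was analysed, 2 Lenti-GFP and 2 Lenti-AS, grouped by their titles. According to the paper's methods, 50 bp paired-end reads were aligned by the authors to rn6 with hisat2 and counted with featureCounts over RefSeq exons, while the submitters' processing notes list GSNAP and featureCounts. Tool versions, the strand setting and the handling of multiply mapped reads are not given in the sources used here, so genes with an overlapping or antisense transcript are uncertain. The authors deposited whole-number counts per gene, without normalization. One row that repeats the header was dropped, and every remaining row names a gene. None of the 7 genes has a second row for a copy.

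Genes that reached 10 counts in 2 or more samples were fitted with edgeR 4.0.16 in R 4.3.3 (TMM factors, glmQLFit with the defaults of that version, glmQLFTest, no replicate term). The biological coefficient of variation was 12.1%. Standard errors were computed from the F statistic and 95% intervals from the t distribution of the fit. Alternatives were DESeq2 1.42.0, limma-voom (limma 3.58.1), the likelihood ratio test, the newer quasi-likelihood form, other scalings and filters, a replicate block, other fold limits and leaving out each sample. The test was tried on simulated counts.

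The genes, the Wnt and marker lists, the motif and the tests were chosen with earlier results of these data known. Named genes are the 10 listed, the 3 nearest to Axin2 and, from each Wnt list, the called genes, the gene with the smallest p and the 2 with the highest mean CPM. Gene lengths were not used, so levels are not compared between genes. Promoter windows were matched by symbol to RefSeq on GRCr8.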

Additional observations from a re-analysis of the deposited data

How the results depend on the processing

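The 7 genes were refitted under 14 alternatives each. Of these 98 fits, 84 kept the sign of the log2 fold change and the side of the cut-offs. Rnf43 had no adjusted p with DESeq2 and was counted there as not called. The log2 fold change of Tcf7l1 was -0.24 without Lenti-AS 1 and 0.87 without Lenti-AS 2. That of Tcf7l2 was 0.0108 with library totals, 0.0622 without Lenti-GFP 2, 0.26 without Lenti-AS 2 and -0.38 without Lenti-AS 1. Axin2 lost its call under the replicate block (log2 fold change 1.09, adjusted p = 0.0741) and without either Lenti-GFP sample, with log2 fold changes of 1.04 to 1.15 over the fits that left out one sample. Against 1 of the 7 genes called higher, DESeq2, the likelihood ratio test and no low-count filter gave 2 (Nkd1 as well), the replicate block gave 0, and leaving out one sample gave 0 to 4. None of the 7 was called lower under any alternative, and 3 had an unadjusted p under 0.05 in either direction. Against 2 genes of the Wnt lists called higher, DESeq2 gave 5, library totals 4, the likelihood ratio test 4, the replicate block 0 and a fold limit of 1.5 gave 0, and leaving out one sample gave 0 to 16. Against 3 called lower, the likelihood ratio test gave 5, the replicate block 0 and a fold limit of 1.5 gave 1, and leaving out one sample gave 0 to 8. The highest counts came without Lenti-AS 2, where 1260 genes of the table were called higher and 255 lower, and without either Lenti-GFP sample 0 were called higher and 1 lower. With the replicate block 3 and 14 genes of the table were called, against 163 and 83. Same-numbered samples share no stated culture and did not deviate together (correlation -0.0123 across genes). When one sample is left out, the lone sample of its group is taken to vary like the other group. Counts near 30, as for Rnf43, limit the precision of its fold change.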
